A study of Mus musculus with 5 samples.

Results

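The unfolded protein response and the protein machinery of the endoplasmic reticulum (ER) were described through 34 genes in 5 cultures of mouse CD4 T cells. The genes were chosen by name, and each was read from the probes whose RefSeq accession belongs to its symbol, with the brightest probe standing for the gene. All 34 were on the array, of 21366 named genes in all. They comprised 3 stress sensors and transcription factors, 9 chaperones of the BiP and GRP94 group, 6 lectin chaperones and disulfide isomerases, 7 genes of ER-associated degradation, and 9 of the translocon, the translocon-associated protein (TRAP) complex and the signal peptidase. The signal of 33 of them exceeded background clearly on each of the 5 arrays, while that of Derl3 did not on the rested array.

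All cultures started from naive CD4 T cells of the spleen of C57BL/6 mice. Th1reg cells had gone through 3 steps of 4 days, 12 days in all: Th1 culture, rest, and then the iTreg medium. That medium held antibodies to CD3 and CD28 as the stimulus, antibodies that block IFN-g and IL-4, IL-2 and TGF-b. iTreg cells had been put into the same medium directly as naive cells, for 4 days. Th1+TGFb cells were Th1 cells that spent a second step of 4 days in the iTreg medium with no rest before it, 8 days in all. Rested cells were Th1 cells kept for 4 more days in IL-2 with antibodies to IFN-g and IL-4 and no stimulus through CD3 or CD28, likewise 8 days in all. Th1 cells were naive cells given 4 days of anti-CD3 and anti-CD28 in the presence of IL-2, IL-12 and a block of IL-4. All 5 cultures thus had IL-2 in every step and IL-4 blocked, and the 3 later cultures descend from Th1 cells. The labels give the purpose only as profiling CD4 T cells under different culture conditions, and do not say how many mice gave the cells. Each culture was measured on 1 array with no replicate, so no test or p-value could be had, and medium, stimulus and total time in culture cannot be told apart where they differ together.

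The ER folds the proteins that a cell secretes or places in its membranes. When unfolded proteins pile up there, the chaperone BiP leaves the sensors IRE1, ATF6 and PERK, which then raise the transcription of chaperones, folding enzymes and degradation factors and, through PERK, slow translation. IRE1 acts by splicing the Xbp1 mRNA into the form that encodes the active transcription factor, and ATF6 by being cut loose from the membrane. Among lymphocytes the pathway is best known from plasma cells, which need Xbp1 for antibody secretion, and activated T cells also enlarge their secretory machinery when they make cytokines.

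The DNA element through which ATF6 and XBP1 are known to act on such genes, together with the factor NF-Y, is the ER stress response element (ERSE), spelled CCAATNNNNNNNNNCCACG. Its fixed parts are the CCAAT box, to which NF-Y binds, and CCACG. It was searched on both strands in the 250 bases before the transcription start of RefSeq promoters (assembly GRCm38.p6), which held an entry for 26 of the 34 genes. An ERSE was found in 9 of these 26 genes (34.6%), and in 35 of all 27025 genes with such a window (0.130%, 37 of 32851 windows). The related ERSE-II, spelled ATTGGNCCACG, was in the window of 1 of the 26, Herpud1, and in 0.0370% of all genes. The core of the XBP1-binding unfolded protein response element, TGACGTGG, which contains CCACG read on the other strand, was in none of the 26 and in 0.603% of all genes. The parts alone were common: 21 of the 26 genes held CCAAT and 21 held CCACG (80.8% each), against 37.5% and 31.0% of all genes. A match is a run of letters and no measure of binding. The matched sites are shown for the genes that held an ERSE or ERSE-II, which were not most of the 26. They are read from CCAAT (for ERSE-II from ATTGG), with the letters that the motif fixes in capitals.
Hspa5, ERSE at chr2:34772025-34772043, plus strand: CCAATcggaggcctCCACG
Hsp90b1, ERSE at chr10:86705638-86705656, minus strand: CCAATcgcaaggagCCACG
Hsp90b1, ERSE at chr10:86705533-86705551, plus strand: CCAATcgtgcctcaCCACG
Creld2, ERSE at chr15:88819520-88819538, minus strand: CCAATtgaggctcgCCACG
Dnajc3, ERSE at chr14:118937827-118937845, plus strand: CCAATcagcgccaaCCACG
Calr, ERSE at chr8:84847075-84847093, plus strand: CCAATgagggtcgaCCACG
Canx, ERSE at chr11:50325800-50325818, minus strand: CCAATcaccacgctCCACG
Pdia6, ERSE at chr12:17266491-17266509, plus strand: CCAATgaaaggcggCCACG
Syvn1, ERSE at chr19:6046532-6046550, plus strand: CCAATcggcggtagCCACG
Derl3, ERSE at chr10:75893242-75893260, minus strand: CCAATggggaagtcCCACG
Herpud1, ERSE-II at chr8:94386377-94386387, plus strand: ATTGGgCCACG

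Hsp90b1 held 2 such sites, on opposite strands, and the other 8 genes 1 each. The whole windows of 4 genes follow because these genes gave the clearest contrasts between sequence and signal. Hspa5 was among the genes that differed most between the cultures, Dnajc3 carried an ERSE and hardly differed, Derl3 carried one and was highest in iTreg cells, and Herpud1 carried the ERSE-II. Capitals mark the fixed letters of the match, and the last base of each window is the one before the transcription start.
Hspa5, chr2:34771840-34772089, plus strand: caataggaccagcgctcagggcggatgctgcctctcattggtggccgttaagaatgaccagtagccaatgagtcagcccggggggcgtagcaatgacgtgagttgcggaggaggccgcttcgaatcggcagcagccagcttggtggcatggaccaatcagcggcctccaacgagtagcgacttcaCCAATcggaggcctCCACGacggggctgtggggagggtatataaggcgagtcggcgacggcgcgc
Dnajc3, chr14:118937682-118937931, plus strand: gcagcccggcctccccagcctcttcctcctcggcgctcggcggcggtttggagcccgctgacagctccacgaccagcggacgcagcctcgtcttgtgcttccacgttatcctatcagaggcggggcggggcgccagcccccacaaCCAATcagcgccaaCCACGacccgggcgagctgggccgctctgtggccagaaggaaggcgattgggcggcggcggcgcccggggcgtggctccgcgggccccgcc
Herpud1, chr8:94386179-94386428, plus strand: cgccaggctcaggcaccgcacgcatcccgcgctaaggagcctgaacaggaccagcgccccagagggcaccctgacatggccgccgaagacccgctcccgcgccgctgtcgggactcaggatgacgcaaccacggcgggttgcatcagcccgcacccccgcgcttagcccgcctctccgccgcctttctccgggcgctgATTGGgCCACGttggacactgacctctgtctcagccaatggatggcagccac
Derl3, chr10:75893148-75893397, plus strand: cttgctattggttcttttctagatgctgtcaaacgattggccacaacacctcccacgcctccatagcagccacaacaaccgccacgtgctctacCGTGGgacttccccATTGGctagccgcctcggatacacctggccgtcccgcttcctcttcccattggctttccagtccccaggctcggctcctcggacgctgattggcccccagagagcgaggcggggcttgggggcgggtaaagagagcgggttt

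Values are log2 of the background-subtracted signal minus log2 of the 75th percentile of the array's spots, so that 0 marks that percentile. Levels of different genes come from different probes and were not compared. The 75th percentile itself ran from 144 on the rested array to 306 on the Th1reg array, and 45.7% to 48.7% of spots were well above background. A difference of 2-fold, 1 log2 unit, counts below as higher or lower. Repeat spots on the same array gave a technical SD of a difference of 0.103 log2 units, which holds nothing of the variation between cultures. All 8 CD4 T cell markers were well above background on every array. Foxp3, the factor of regulatory T cells, was so only in Th1reg (4.12) and iTreg cells (5.26), and the Th1 factor Tbx21 had 4.86 in Th1reg, 0.58 in iTreg, 4.71 in Th1+TGFb, 4.23 in rested and 6.42 in Th1 cells. Each came from a list of 4. Beside Foxp3, Il2ra (8.24) and Ikzf2 (-0.98) were also highest in iTreg cells. Ctla4 instead was highest in Th1 (4.51) and lowest in iTreg cells (2.36). Beside Tbx21, Ifng (10.2) and Il12rb2 (2.27) were also highest in Th1 cells. Cxcr3 instead had 1.69 in Th1, 6.88 in rested and 5.67 in Th1reg cells. On the lists for other cells, 2 or 3 of 6 B cell markers were well above background per array (summed signal 0.857 to 4.20 times the 75th percentile), 2 or 3 of 6 plasma cell markers (5.51 to 128), 3 or 4 of 8 myeloid markers (244 to 1158) and 2 of 5 CD8 T and NK cell markers (1.37 to 6.16). At background on every array were Cd79a, Pax5, Mzb1, Tnfrsf17, Lyz1, Lyz2, S100a8, S100a9, Ncr1 and Klrb1c among them. Well above background on all 5 arrays were Cd22, Irf4, Csf1r, Itgam, Siglech and Cd8b1.

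Th1 cells most often held the highest level of these genes and rested cells the lowest, with exceptions in each role. Of the 33 measured on all arrays, 25 were highest in Th1 cells (75.8%), against 24.7% of 10717 genes measured on all arrays. Rested cells held the lowest level of 22 (66.7%), against 38.3% of those genes, and iTreg cells that of 7 (21.2%, against 23.9%). Th1reg cells had the highest level of 5 genes (15.2%, against 31.3% of those genes), namely Creld2, Canx, Pdia4, Sel1l and Sec11c. None of the 33 was highest in iTreg cells, against 13.7% of those genes. For Creld2, Pdia4 and Sel1l the Th1reg and Th1 arrays were closer than the technical SD. The distance between the highest and lowest array was at least 1 log2 unit for 29 genes and at least 2 for 13, with a median of 1.67, from 0.55 for Herpud1 to 3.50 for Sdf2l1. Which array is highest or lowest depends on the scaling between arrays, whose effect is given with each comparison. In bulk RNA like this, fewer cells of a type and less RNA per cell cannot be told apart.

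**Figure D1:**
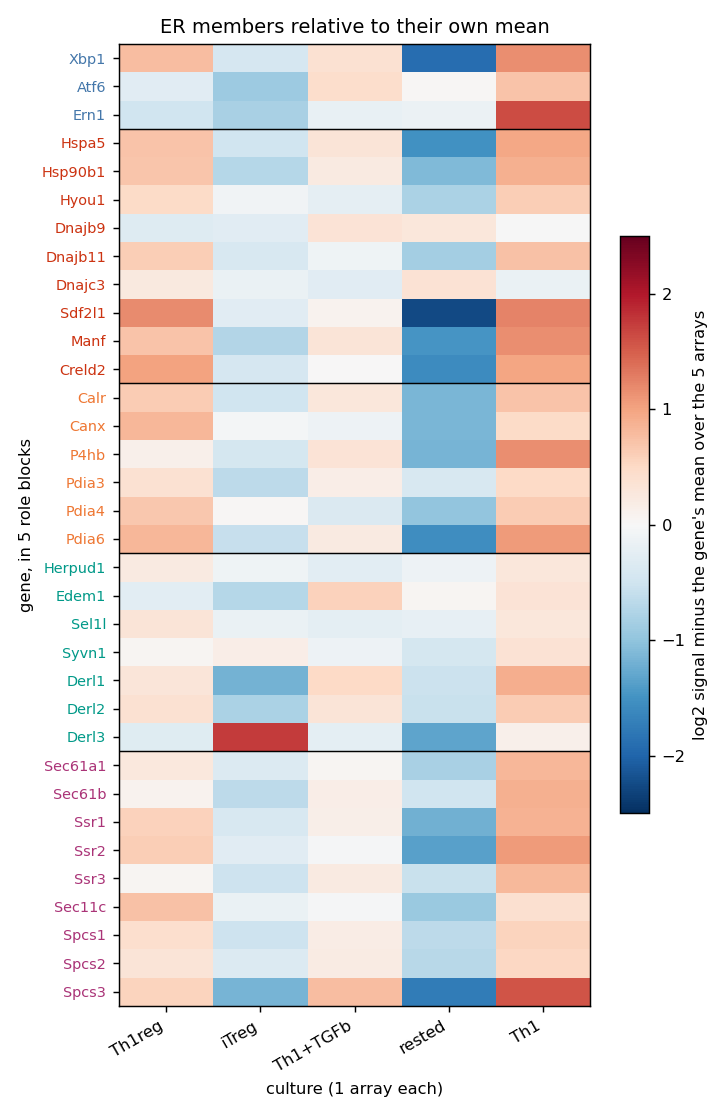
Each row is 1 of the 34 genes, in 5 role blocks, and each column 1 culture (1 array); colour gives log2 signal minus the gene's own mean over the 5 arrays. The rested column is mostly blue and the Th1 column mostly red, while Dnajb9, Dnajc3 and Herpud1 stay near white and Derl3 is red in iTreg cells.

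Xbp1 and its upstream sensor did not share an order. Xbp1, the transcription factor whose mRNA IRE1 splices, had a signal of 7.17 in Th1reg, 5.98 in iTreg, 6.78 in Th1+TGFb, 4.48 in rested and 7.56 in Th1 cells. The rested array stood well below the others, and Th1reg cells came second to Th1 cells. Ern1, which encodes IRE1, had 0.09 in Th1reg, -0.22 in iTreg, 0.41 in Th1+TGFb, 0.44 in rested and 2.21 in Th1 cells. It was high in Th1 cells alone, and the other 4 cultures lay between -0.22 and 0.44. Atf6, which encodes the sensor that is cut to a transcription factor, had -1.15 in Th1reg, -1.78 in iTreg, -0.42 in Th1+TGFb, -0.84 in rested and -0.15 in Th1 cells, a dim signal on each array with its lowest value in iTreg cells. The probe for Xbp1 reports its mRNA, and the splicing of that mRNA was not analysed here.

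The BiP and GRP94 group held the gene with the widest span, Sdf2l1, and also some of the narrowest. Hspa5, which encodes BiP, the main ER chaperone and the brake on the sensors, had 7.07 in Th1reg, 5.84 in iTreg, 6.67 in Th1+TGFb, 4.82 in rested and 7.32 in Th1 cells. Sdf2l1, an ER protein that works with BiP and its co-chaperones, had 3.51 in Th1reg, 2.05 in iTreg, 2.42 in Th1+TGFb, 0.08 in rested and 3.57 in Th1 cells, the widest span of the 33 genes. Its levels in Th1reg and Th1 cells were closer than the technical SD, and rested cells stood alone at the bottom. Manf, a secreted BiP-binding protein, had 4.39 in Th1reg, 2.94 in iTreg, 3.98 in Th1+TGFb, 2.20 in rested and 4.83 in Th1 cells. Creld2, an ER protein known for its induction by ER stress, had 5.98 in Th1reg, 4.55 in iTreg, 4.97 in Th1+TGFb, 3.40 in rested and 5.96 in Th1 cells. All 4 genes had the order of rested lowest, then iTreg, then Th1+TGFb cells, with Th1reg and Th1 cells on top. Hsp90b1 (GRP94) and Dnajb11, a co-chaperone of BiP, had that order too, with spans of 2.0 and 1.58. Hyou1, the nucleotide exchange factor of BiP, was dim and also highest in Th1 and lowest in rested cells (span 1.41). The BiP co-chaperones Dnajc3 and Dnajb9 behaved differently, with spans of only 0.64 and 0.68. Dnajc3 had 1.91 in Th1reg, 1.50 in iTreg, 1.38 in Th1+TGFb, 2.02 in rested and 1.49 in Th1 cells, and Dnajb9 had -0.34 in Th1reg, -0.30 in iTreg, 0.34 in Th1+TGFb, 0.28 in rested and -0.02 in Th1 cells. Rested cells had the highest Dnajc3 level of the 5 and the second highest Dnajb9 level.

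Among the lectin chaperones and disulfide isomerases, Pdia6 had 7.03 in Th1reg, 5.64 in iTreg, 6.43 in Th1+TGFb, 4.66 in rested and 7.28 in Th1 cells. P4hb, which encodes protein disulfide isomerase itself, had 4.17 in Th1reg, 3.61 in iTreg, 4.40 in Th1+TGFb, 2.89 in rested and 5.22 in Th1 cells. Canx, the membrane-bound lectin chaperone calnexin, had 5.92 in Th1reg, 5.05 in iTreg, 4.97 in Th1+TGFb, 3.94 in rested and 5.58 in Th1 cells. Rested cells were lowest for all 3, whereas the top was Th1 for the isomerases and Th1reg for calnexin. P4hb was the isomerase that stayed furthest below its Th1 level in Th1reg cells. Calr, the soluble partner of calnexin, and Pdia4 were also lowest in rested cells, at 4.16 and 0.83, against 6.02 and 2.45 in Th1 cells. Pdia3, the isomerase that works with calnexin and calreticulin, was lowest in iTreg cells, at 3.36, against 4.51 in Th1 cells.

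The genes of ER-associated degradation varied less, with a median span of 1.05 over the 6 measured on all arrays. Derl1, a derlin of the channel through which misfolded proteins leave the ER, had 3.34 in Th1reg, 1.86 in iTreg, 3.54 in Th1+TGFb, 2.49 in rested and 3.95 in Th1 cells. Its relative Derl2 had 5.61 in Th1reg, 4.45 in iTreg, 5.56 in Th1+TGFb, 4.68 in rested and 5.86 in Th1 cells, and Edem1, which hands glycoproteins to degradation, had 2.82 in Th1reg, 2.37 in iTreg, 3.66 in Th1+TGFb, 3.12 in rested and 3.43 in Th1 cells. All 3 were lowest in iTreg cells, not in rested cells, on these brightest probes. Herpud1, the scaffold of the degradation complex, had 3.25 in Th1reg, 2.93 in iTreg, 2.76 in Th1+TGFb, 2.91 in rested and 3.31 in Th1 cells, the narrowest span of the 33. Sel1l and Syvn1, which together form the membrane ubiquitin ligase of the pathway, spanned 0.57 and 0.81. Derl3 was highest in iTreg cells, with -2.04 in Th1reg, 0.01 in iTreg, -1.99 in Th1+TGFb, -3.06 in rested and -1.60 in Th1 cells, the rested value being not well above background. Only the iTreg array stood high for it, and its signal was under 100 units on the other 4 arrays, where repeat spots of such dim probes had a median SD of 0.167 to 0.199 log2 units.

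Of the 9 translocon and signal peptidase genes, 8 were highest in Th1 and 8 lowest in rested cells. Spcs3, a subunit of the signal peptidase that cuts signal sequences off, had 3.13 in Th1reg, 1.40 in iTreg, 3.34 in Th1+TGFb, 0.82 in rested and 4.14 in Th1 cells. Ssr2, a subunit of the TRAP complex beside the channel, had 4.84 in Th1reg, 3.95 in iTreg, 4.21 in Th1+TGFb, 2.88 in rested and 5.30 in Th1 cells, and Ssr1, another subunit, had 5.26 in Th1reg, 4.29 in iTreg, 4.83 in Th1+TGFb, 3.48 in rested and 5.56 in Th1 cells. Th1 cells were highest and rested cells lowest for all 3, and iTreg cells were second lowest. Of the other 6 genes, Sec61a1, Ssr3, Spcs1 and Spcs2 had the same top and bottom. Sec61b, a subunit of the Sec61 channel, was lowest in iTreg cells (6.58, with 6.73 in rested cells). Sec11c, a catalytic subunit of the signal peptidase, was highest in Th1reg cells (3.20, with 2.86 in Th1 cells). Spans over the 9 genes ran from 1.20 to 3.33 log2 units.

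**Figure D2:**
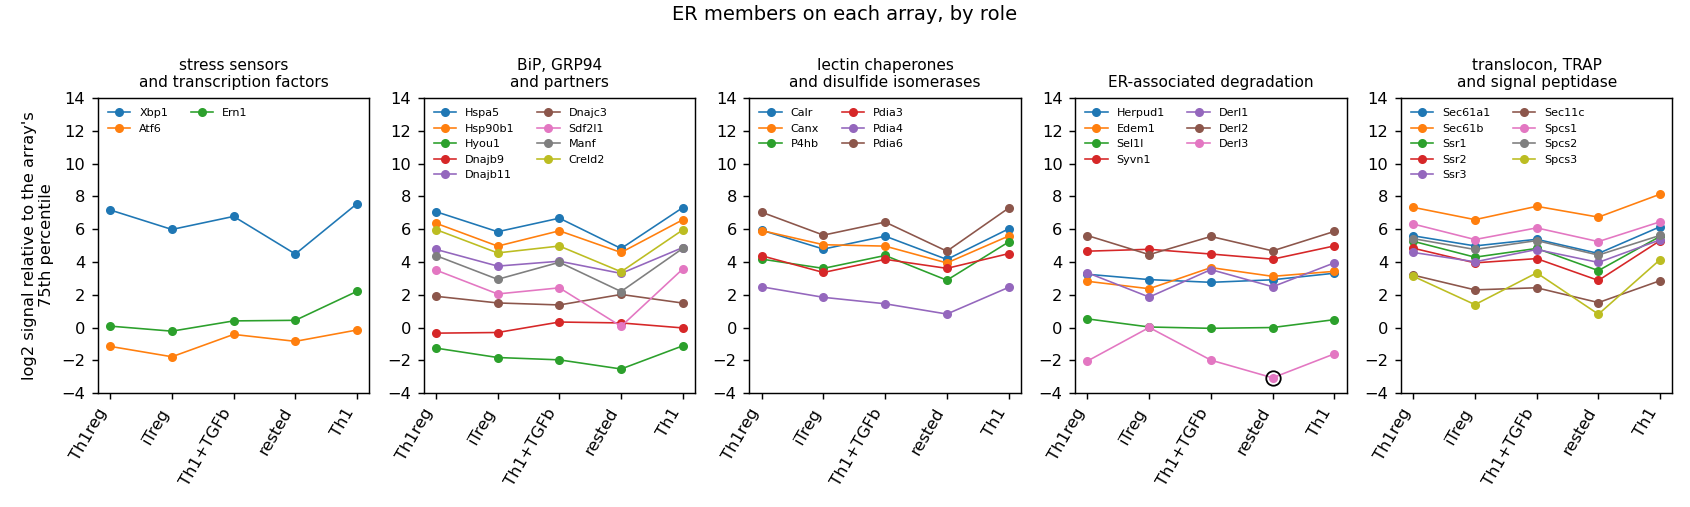
Log2 signal relative to each array's 75th percentile for the 34 genes, 1 panel per role, with the 5 cultures on the horizontal axis (1 array each) and lines that only join the values of 1 gene. Most lines dip in rested cells, Ern1 stands out in Th1 cells at 2.21, and the ringed point is Derl3 in rested cells, not well above background.

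The first comparison set iTreg against Th1 cells, both stimulated naive cells of 4 days. They differed in the cytokine added, TGF-b or IL-12, and in the block of IFN-g, which only the iTreg medium held. ER genes were lower in iTreg cells: 23 of the 34 were at least 2-fold lower and 1, Derl3, was higher. Of all 13152 genes tested, 17.8% were lower and 10.8% higher. The median log2 difference of the 34 was -1.25, against -0.24 for all genes. The reference level between arrays was also set in other ways: scaled to 8 spike-in probes, 16.2% of all genes were higher and 11.6% lower, and scaled to the 75th percentile of the 21014 probes detected on every array, 18.4% and 10.2%. Relative to the median of all genes, the ER median was -1.01 here, -1.01 with the spike-ins and -1.01 over the detected probes. Each of these scalings subtracts a constant per array from every gene. This gap, here and in the comparisons below, could therefore hardly change and is no check of the result. The sensor genes Ern1 and Atf6 were 5.39-fold and 3.10-fold lower, and the transcription factor Xbp1 2.98-fold. Spcs3 had the widest difference (6.70-fold lower), ahead of Derl1 (4.24-fold) and Manf (3.70-fold). On the log2 scale Spcs3's other probe gave -1.47 and Derl1's other probe -0.56. By role, 6 of 9 BiP-group genes, 4 of 6 lectin chaperones and isomerases, 3 of 7 degradation genes and 7 of 9 translocon genes were lower, with role medians of -1.40, -1.19, -0.45 and -1.27. Over the detected probes 14 genes were lower, and 13 were lower in every setting, among them Xbp1, Hspa5, Hsp90b1 and Sdf2l1. Derl3 was 3.05-fold higher in iTreg cells (not 2-fold with another background correction), while Dnajc3 differed by 0.01, Syvn1 by -0.21 and Dnajb9 by -0.28 log2 units.

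Genes outside the 34 were read from 8 further lists of the secretory pathway and related chaperones. In iTreg against Th1 cells, 9 of 11 oligosaccharyltransferase genes, whose enzyme attaches sugars to new proteins, were lower and none higher (median -1.25), among them Krtcap2, Ostc and Ost4, at 3.56-fold, 3.35-fold and 3.09-fold. Of 10 genes of the PERK arm and its factor ATF4, 7 were lower (median -1.40). They included Chac1, a glutathione-degrading enzyme and ATF4 target (38.1-fold), Atf3 (24.1-fold) and the asparagine synthetase Asns (17.0-fold). ER to Golgi transport had 11 of 19 lower and 1 higher (Sec24d 6.88-fold lower and Sec24a 3.80-fold higher, both coat subunits). Other translocon genes had 7 of 15 lower, with the channel subunit Sec61g 4.91-fold lower. Other folding enzymes had 5 of 15 lower and 1 higher (Pdia5 at least 15.6-fold and the oxidase Ero1a 5.27-fold lower), other degradation genes 3 of 14 lower and 1 higher, and the list of other sensors, their relatives and site proteases 2 of 7 lower, one of them Creb3l2 (13.5-fold). Cytosolic and mitochondrial chaperones, which serve other compartments, had 1 of 12 lower, Hsp90aa1 (2.36-fold), and a median of -0.50. The 6 plasma cell markers summed to 24.6 times the 75th percentile in iTreg and 128 times in Th1 cells. Irf4 had 4.60 in iTreg and 6.93 in Th1 cells, and Sdc1 and Prdm1 were at background in iTreg cells and had 1.04 and 2.22 in Th1 cells, while Mzb1 and Tnfrsf17 were at background on both. Jchain went the other way, with -2.48 in iTreg cells and a signal at background in Th1 cells. The part of these markers in the ER differences was not tested.

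The next comparison set rested cells, Th1 cells after 4 further days without a stimulus, against the Th1 cells they came from. The ER programme was lower in rested cells: 26 of the 34 genes fell short of their Th1 level by 2-fold or more, and none was higher. Of all 13231 genes tested, 26.5% were lower and 17.6% higher, and the median was -1.52 for the 34 against -0.28 for all genes. The shares of all genes higher and lower were 4.57% and 65.1% with the spike-ins and 27.6% and 14.5% over the detected probes. The ER median relative to all genes was -1.24 as scaled here, -1.24 with the spike-ins and -1.17 over the detected probes. Sdf2l1 was 11.3-fold lower and Xbp1 8.40-fold, and Spcs3 differed by -3.33 log2 units. Hspa5 was 5.63-fold lower, Manf 6.19-fold, Pdia6 6.16-fold and Creld2 5.87-fold. All 9 translocon and signal peptidase genes were lower (median -1.40), as were 7 of 9 BiP-group genes (-2.0), 5 of 6 lectin chaperones and isomerases (-1.75), 3 of 7 degradation genes (-0.81) and, of the sensors and transcription factors, Ern1 and Xbp1 but not Atf6 (-1.77). The 8 genes within 2-fold were Dnajc3 (0.53), Dnajb9 (0.31), Edem1 (-0.31), Herpud1 (-0.40), Sel1l (-0.48), Atf6 (-0.69), Syvn1 (-0.81) and Pdia3 (-0.90). The sign of the first 5 turned under the spike-in or the detected-probe scaling: Dnajc3, for example, ranged from -0.64 to 1.05 over the settings tried. Over the detected probes 17 genes were lower and 1, Dnajc3, higher. A core of 16 genes was at least 2-fold lower in every setting: Xbp1, Ern1, Hspa5, Hsp90b1, Sdf2l1, Manf, Creld2, Calr, Canx, P4hb, Pdia4, Pdia6, Sec61a1, Ssr1, Ssr2 and Spcs3.

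Several of the further lists held more genes lower in rested cells than the 26.5% of all genes. Each of the 11 oligosaccharyltransferase genes was at least 2-fold lower, with a median of -1.91, led by Rpn1 (4.64-fold), the catalytic subunit Stt3b (4.53-fold) and Ostc (4.32-fold). In the PERK and ATF4 list 7 of 10 were lower (median -1.60), with Chac1 at least 50.8-fold, Atf3 24.4-fold and Asns 13.4-fold lower. Other translocon genes had 9 of 15 lower (-1.05), other folding enzymes 8 of 15 (-1.06) and ER to Golgi transport 10 of 19 (-1.02), with none higher in these lists. The receptor Kdelr2, which returns escaped chaperones to the ER, was 5.14-fold lower, and the prolyl isomerase Fkbp2 5.76-fold. Of other degradation genes 4 of 14 were lower (median -0.58), and of other sensors, their relatives and site proteases 2 of 7 (-0.48), shares close to that of all genes. Outside the ER, 7 of 12 cytosolic and mitochondrial chaperones were lower as well, with a median of -1.47 and Hsp90aa1 6.50-fold lower. Irf4, the transcription factor on the plasma cell list, had 5.46 in Th1reg, 4.60 in iTreg, 5.73 in Th1+TGFb, 2.08 in rested and 6.93 in Th1 cells, and the summed signal of that list of 6 was 5.51 times the 75th percentile in rested and 128 times in Th1 cells. On that list Sdc1 was at background in rested cells and had 1.04 in Th1 cells, Prdm1 had -0.0019 in rested and 2.22 in Th1 cells, and Mzb1, Tnfrsf17 and Jchain were at background on both. On the myeloid list of 8, Itgam and Siglech were bright on all arrays, at 8.84 and 9.45 in rested cells, against 6.52 and 8.01 in Th1 cells. Its summed signal was 1158 times the 75th percentile in rested cells and 349.9 times in Th1 cells, while Lyz1, Lyz2, S100a8 and S100a9 were at background on both. The part of these lists in the ER differences was not tested.

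**Figure D3:**
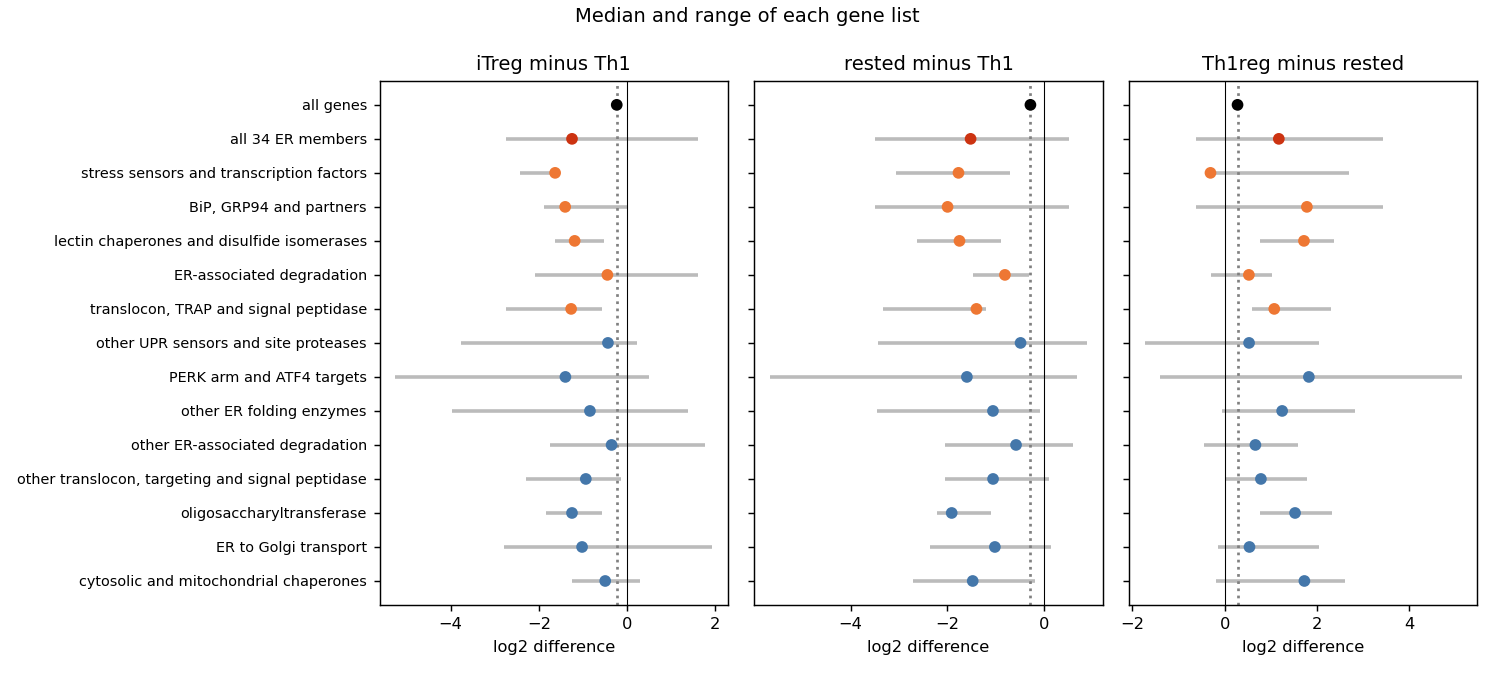
Median (point) and range (bar) of log2 differences for all genes (median only), the 34 ER genes, their 5 roles and the 8 further lists, with 1 panel each for iTreg minus Th1, rested minus Th1 and Th1reg minus rested; the dotted line is the median of all genes. The ER median is -1.25, -1.52 and 1.17, and the cytosolic chaperones lie nearer to all genes in iTreg minus Th1 (-0.50) than in rested minus Th1 (-1.47).

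Th1+TGFb against Th1 cells set the iTreg medium, entered without rest, against its starting cells. Few ER genes were 2-fold apart: 3 of the 34 were lower in Th1+TGFb cells and none was higher, against 7.79% lower and 11.3% higher of all 13058 genes, so the count of lower genes was near that of all genes. Below 0 were 32 of the 34, and 8119 of the 13058. Their median was -0.63, against -0.20 for all genes. Under the spike-in scaling 6.87% of all genes were higher and 21.3% lower, against 15.1% and 4.10% over the detected probes. Ern1 was 3.49-fold lower, Sdf2l1 2.22-fold and Ssr2 2.14-fold, and only Ern1 was 2-fold lower in every setting. With the spike-in scaling 17 of the 34 were 2-fold lower. Hspa5 differed by -0.65, Xbp1 by -0.78 and Pdia4 by just under 1 log2 unit, all lower in Th1+TGFb cells, whereas Dnajb9 (0.36) and Edem1 (0.23) were above 0. In the further lists few genes were 2-fold apart: Chac1 (2.41-fold lower), Pdia5 (3.25-fold lower), Pdia2 (2.07-fold lower), Dnajc10 (2.04-fold lower), Sec24b (2.17-fold lower), Hsp90aa1 (2.10-fold lower) and Hspa1a (at least 2.73-fold higher). None of the 11 oligosaccharyltransferase genes reached 2-fold, with a median of -0.67. The plasma cell list summed to 63.5 times the 75th percentile in Th1+TGFb and 128 times in Th1 cells. Most of that sum came from Irf4 (5.73 and 6.93), while Sdc1 had 2.87 and 1.04. The myeloid list summed to 728 and 349.9 times, mostly from Siglech (8.90 and 8.01) and Itgam (7.95 and 6.52). Lyz1, Lyz2, S100a8 and S100a9 were at background on both arrays. The part of either list in the ER differences was not tested.

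Th1+TGFb and rested cells had the same Th1 start and the same 8 days, and differed in whether the second step held a stimulus and TGF-b. ER genes were higher in Th1+TGFb cells, 15 of the 34 by at least 2-fold and none lower, against 17.4% higher and 8.85% lower of all 13130 genes, with medians of 0.88 and 0.10. With the spike-ins as the scale, 45.2% of all genes were higher and 2.25% lower, and over the detected probes 12.4% and 15.5%. The ER median relative to all genes was 0.78 as scaled here, the same with the spike-ins, and 0.76 over the detected probes. Spcs3 was 5.73-fold higher, Sdf2l1 5.09-fold, Xbp1 4.90-fold, Hspa5 3.60-fold and Manf 3.44-fold. Ern1 (-0.04), Sel1l (-0.05), Dnajb9 (0.05) and Herpud1 (-0.15) lay near 0, and Dnajc3 had -0.64. With the spike-ins 29 genes were higher. By role, 5 of 9 BiP-group genes (median 1.32), 4 of 6 lectin chaperones and isomerases (1.22), 3 of 9 translocon genes (0.88), 2 of 7 degradation genes (0.53) and the transcription factor Xbp1 were higher, and neither Ern1 nor Atf6 was. Around them, 7 of 11 oligosaccharyltransferase genes were higher (median 1.11), as were 5 of 10 PERK and ATF4 genes, with 1 lower. Chac1 was at least 21.0-fold higher, Atf3 18.5-fold and Asns 9.17-fold. The rise was not limited to the ER. Of 13 cytosolic and mitochondrial chaperones 4 were higher and none lower, and their median of 0.87 was close to that of the 34 genes. The summed signal of the plasma cell list was 63.5 times the 75th percentile in Th1+TGFb cells, against 5.51 times in rested cells. Most of that sum came from Irf4, with 5.73 in Th1+TGFb and 2.08 in rested cells. On that list Sdc1 had 2.87 in Th1+TGFb cells and was at background in rested cells, and Prdm1 had 1.55 in Th1+TGFb and -0.0019 in rested cells. Mzb1, Tnfrsf17 and Jchain were at background on both, and the part of the list was not tested.

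Th1reg against rested cells set the iTreg medium, entered after rest, against its starting cells. Of the 8 comparisons it had the most ER genes higher, 21 of the 34, with none lower. Of all 13331 genes tested, 27.5% were higher and 19.7% lower, and the median was 1.17 for the 34 and 0.28 for all genes. All genes split into 71.4% higher and 5.26% lower under the spike-in scaling, and into 15.9% and 27.8% over the detected probes. Relative to all genes the ER median was 0.89 as scaled here, the same with the spike-ins and 0.80 over the detected probes. Sdf2l1 was 10.8-fold higher, Xbp1 6.43-fold, Creld2 5.95-fold, Pdia6 5.19-fold, Spcs3 4.96-fold and Hspa5 4.74-fold. By role, 7 of 9 BiP-group genes, 5 of 6 lectin chaperones and isomerases, 7 of 9 translocon genes, 1 of 7 degradation genes (Derl3, at least 2.04-fold) and the transcription factor Xbp1 were higher. Ern1 (-0.35) and Atf6 (-0.31) were on the other side of 0, as were Dnajb9 (-0.62), Edem1 (-0.30) and Dnajc3 (-0.11), and all 5 turned above 0 with the spike-ins. Xbp1 and its sensor Ern1 thus differed by 2.69 and -0.35 log2 units on the same pair of arrays. With the spike-ins 33 genes were higher, and over the detected probes 1, Dnajb9, was lower. A core of 14 genes was 2-fold higher in every setting: Xbp1, Hspa5, Hsp90b1, Sdf2l1, Manf, Creld2, Calr, Canx, Pdia4, Pdia6, Ssr1, Ssr2, Sec11c and Spcs3. The comparisons of rested with Th1 and of Th1reg with rested cells share the rested array, so their opposite signs are not independent. Likewise all comparisons with Th1 cells share the Th1 array.

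In the further lists, 8 of 11 oligosaccharyltransferase genes had more signal in Th1reg than in rested cells (median 1.53, Rpn1 5.02-fold), 9 of 15 other folding enzymes (1.25, Fkbp2 7.12-fold), 5 of 15 other translocon genes, 6 of 19 ER to Golgi genes (Sec13 4.15-fold) and 4 of 14 other degradation genes, the last 3 counts being near the 27.5% of all genes. The PERK and ATF4 list had 6 of 10 higher and 2 lower, with Chac1 at least 35.1-fold and Asns 20.5-fold higher. The gene of PERK itself, Eif2ak3, on the list of other sensors and site proteases, had 1.34 in Th1reg, 1.71 in iTreg, 2.30 in Th1+TGFb, 3.07 in rested and 2.18 in Th1 cells, and was 3.31-fold lower in Th1reg than in rested cells. The level of the kinase mRNA was highest in rested cells, where Chac1 was at background and Atf3 had -1.80, next to -1.78 in iTreg cells. The 2 lower genes of the PERK and ATF4 list went the other way. Trib3 was highest in rested cells, at 4.21, against 2.81 in Th1reg and 3.53 in Th1 cells. Ppp1r15a had 3.52 in rested and 2.37 in Th1reg cells. Of 13 cytosolic and mitochondrial chaperones 9 were higher (median 1.73), among them Hspd1 (5.84-fold) and Hsp90aa1 (5.80-fold). The summed signal of the plasma cell list was 44.8 times the 75th percentile in Th1reg and 5.51 times in rested cells, and that of the myeloid list 244 times in Th1reg and 1158 times in rested cells. The part of either in the ER differences was not tested.

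The same medium thus met 2 starting points, and the 4 arrays involved are all different. From rested cells (Th1reg against rested) 29 of the 34 genes were above 0, and from Th1 cells (Th1+TGFb against Th1) 32 were below 0. Both held for 29 genes (85.3%), against 47.6% of 12588 genes tested in both comparisons. This count in part restates the order given above. A gene highest in Th1 cells must be below 0 from Th1 cells, and a gene lowest in rested cells above 0 from rested cells. A 2-fold difference each way was reached by 2 of the 34 (5.88%), Sdf2l1 and Ssr2, and by 4.69% of all genes, a like share. Dnajb9 and Edem1 showed the mirror image, with -0.62 and -0.30 from rested cells and 0.36 and 0.23 from Th1 cells. For Dnajb9 this depended on the probe: its other probe gave 0.23 from rested and -0.46 from Th1 cells, like most of the genes. Ern1 was below 0 from both starts, with -0.35 from rested and -1.80 from Th1 cells. With no replicates the difference between the starts could not be tested, and under the other settings the count of 29 became 27 over the detected probes and 34 with the spike-ins. The share of all genes was not counted under those settings.

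**Figure D4:**
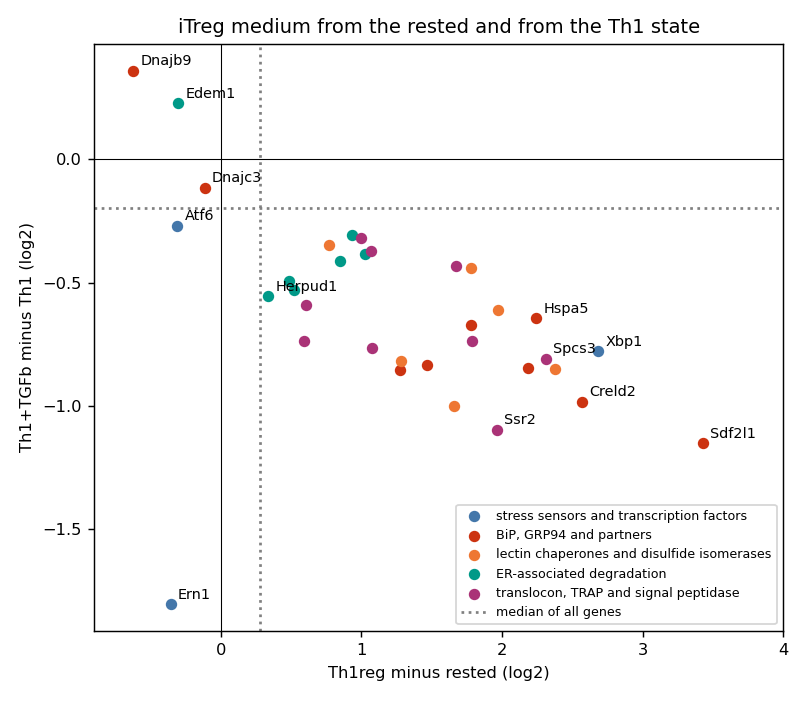
Each point is 1 of the 34 genes, coloured by role, with the log2 difference Th1reg minus rested on the horizontal axis and Th1+TGFb minus Th1 on the vertical axis; dotted lines mark the medians of all genes (0.28 and -0.20). The lower right part holds 29 of the 34 genes, with Sdf2l1 at 3.43 and -1.15, while Ern1 lies low on the left.

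Th1reg and Th1+TGFb cells ended in the same medium and differed in the rest step between. Few ER genes were 2-fold apart: Sdf2l1 (2.12-fold), Pdia4 (2.05-fold) and Creld2 (2.01-fold) were higher in Th1reg cells and none was lower, against 12.3% higher and 14.7% lower of all 13211 genes. The median was 0.38 for the 34 and 0.20 for all genes. The shares of all genes higher and lower were 42.7% and 7.72% with the spike-ins and 7.20% and 18.6% over the detected probes. None of the 3 calls held in every setting: over the detected probes no gene was 2-fold higher and 1 was lower, Edem1, while 18 were higher with the spike-ins. Canx (0.95) and Sec11c (0.77) were higher by less than 2-fold, and Edem1 (-0.83), Atf6 (-0.73) and Dnajb9 (-0.68) were below 0. Outside the 34, 5 of 15 other folding enzymes were higher (Erp44 2.50-fold, Fkbp2 2.27-fold, Txndc5 2.21-fold), and so were 5 of 13 cytosolic and mitochondrial chaperones (Hspa1a 3.16-fold). No gene of the oligosaccharyltransferase list was 2-fold apart.

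Th1reg and iTreg cells also ended in the same medium, one from rested Th1 and one from naive cells, and both carried Foxp3 signal. In Th1reg cells 13 of the 34 genes were higher by 2-fold or more and 1, Derl3, was lower, against 15.8% and 11.7% of all 13181 genes. The median was 0.88 for the 34 and 0.28 for all genes. Under the spike-in scaling 16.3% of all genes were higher and 11.5% lower, against 8.32% and 18.1% over the detected probes. Spcs3 was 3.31-fold higher, Derl1 2.79-fold, Sdf2l1 2.74-fold, Manf 2.72-fold and Creld2 2.68-fold. On the log2 scale Derl1's other probe gave 0.098, against 1.48 for the brightest, and Spcs3's other probe gave 1.36. Hspa5 was 2.33-fold higher and Xbp1 2.28-fold, while Derl3 was 4.12-fold lower. The higher genes were 6 of 9 in the BiP group, 3 of 6 lectin chaperones and isomerases, 2 of 7 degradation genes, 1 of 9 translocon genes and the transcription factor Xbp1. Over the detected probes 7 genes were higher. Calls in every setting were those of Hsp90b1, Sdf2l1, Manf, Creld2, Pdia6, Spcs3 and, as lower, Derl3. The PERK and ATF4 list had 5 of 10 higher and 1 lower, with Chac1 26.4-fold and Asns 25.9-fold higher, and 5 of 11 oligosaccharyltransferase genes were higher (median 0.95). Of 13 cytosolic and mitochondrial chaperones 2 were higher, near the 15.8% of all genes. All 13 were above 0, with a median of 0.62. The plasma cell markers summed to 44.8 times the 75th percentile in Th1reg and 24.6 times in iTreg cells. Most of that sum came from Irf4 (5.46 and 4.60). Jchain went the other way, at background in Th1reg cells and at -2.48 in iTreg cells. The part of these markers in the ER differences was not tested. Time in culture, 12 days for Th1reg and 4 for iTreg cells, and the starting cell cannot be told apart here.

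Th1reg against Th1 cells, a comparison added after the others, gave the net difference over rest and the iTreg medium. No ER gene was 2-fold higher and 3 were lower, against 6.27% higher and 8.3% lower of all 12866 genes. The 3 were Ern1 (4.36-fold), P4hb (2.06-fold) and Spcs3 (2.02-fold), and only the Ern1 call held in every setting. On the log2 scale Spcs3's other probe gave -0.11, against -1.02 for the brightest. The median was -0.25 for the 34 and 0.01 for all genes, and with the spike-ins the ER median was on the other side of 0, at 0.06. With the spike-ins as the scale, 10.8% of all genes were higher and 5.58% lower, and over the detected probes 6.42% and 8.11%. Sdf2l1, the gene with the widest span, differed by -0.07 log2 units between the 2 arrays, Creld2 by 0.02, Hspa5 by -0.25 and Xbp1 by -0.39. Ern1 alone among these was well below its Th1 level in all 4 other cultures, with log2 differences of -2.43 in iTreg, -1.77 in rested, -1.80 in Th1+TGFb and -2.12 in Th1reg cells. In the further lists Kdelr3, another chaperone-returning receptor, was 6.19-fold lower in Th1reg cells, Creb3l2 2.62-fold, Ppp1r15a, a phosphatase subunit of the PERK arm, 2.69-fold and Ddit3 (CHOP) 2.10-fold. The widest difference in these lists went the other way: Hspa1a, a cytosolic heat shock chaperone, was at least 8.65-fold higher in Th1reg cells.

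**Figure D5:**
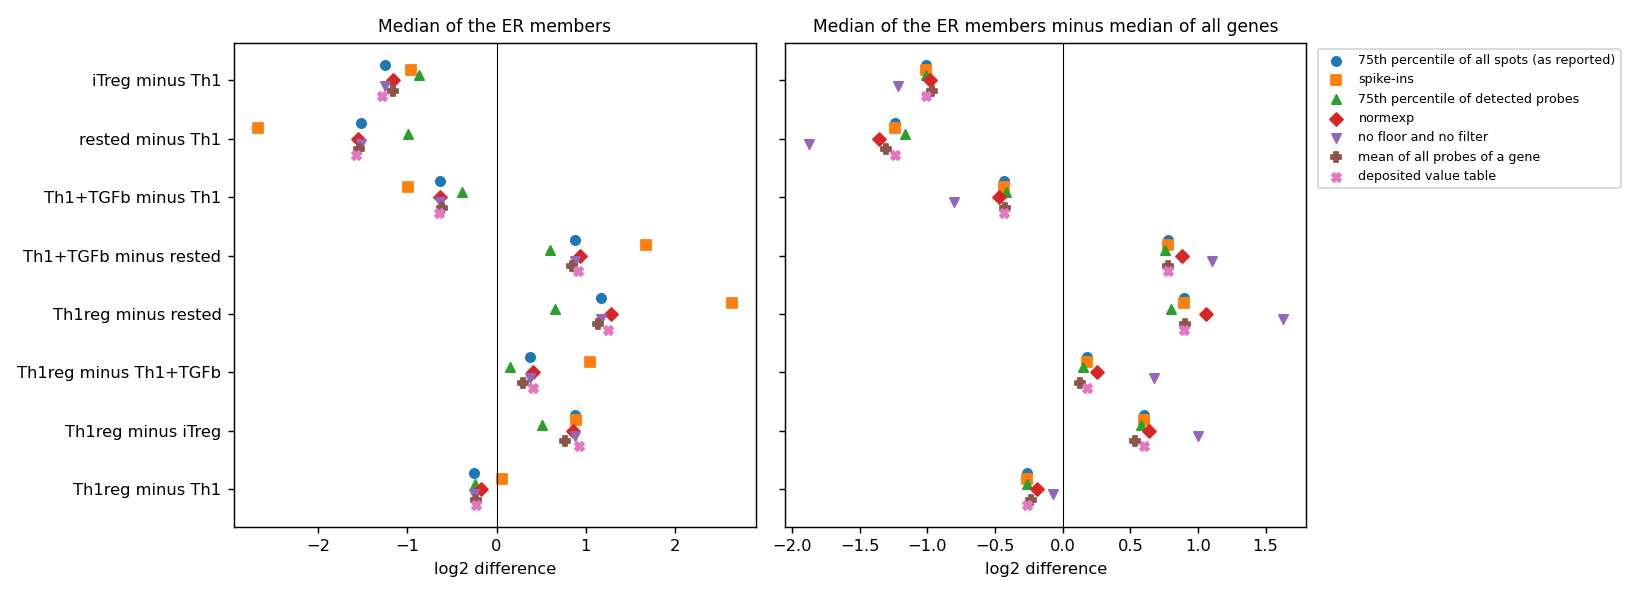
Median log2 difference of the 34 genes in each of 8 comparisons under 7 settings of scaling, background and probe choice (left), and the same after subtraction of the median of all genes (right). The left medians move with the scaling, for rested minus Th1 from -2.68 to -0.99, while on the right the 3 scalings lie together at -1.24, -1.24 and -1.17. They could hardly do otherwise, because each scaling shifts all genes of an array alike.

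Genes with and without an ERSE in the window shown above were set side by side. Of all genes tested, 26.5% were lower in rested than in Th1 cells and 17.8% lower in iTreg than in Th1 cells. The shares higher than in rested cells were 27.5% in Th1reg and 17.4% in Th1+TGFb cells. In rested against Th1 cells 7 of the 9 ERSE genes were lower, with a median of -1.86 and a range from -2.62 (Pdia6) to 0.53 (Dnajc3). Without an ERSE 12 of the 17 were lower, with a median of -1.38 and a range from -3.50 (Sdf2l1) to 0.31 (Dnajb9). In Th1reg against rested cells 7 of 9 and 8 of 17 were higher, with medians of 1.78 and 0.93. In Th1+TGFb against rested cells the counts were 7 of 9 and 4 of 17, with medians of 1.32 and 0.74. The count of 4 of 17 was near the share of all genes. In iTreg against Th1 cells 5 of 9 and 12 of 17 were lower, with medians of -1.23 and -1.15. The ranges of both sets overlapped in each of these comparisons, and the 8 genes with no promoter entry were in neither. Xbp1, Sdf2l1 and P4hb differed strongly and had no ERSE in these 250 bases, whereas Dnajc3 and Syvn1 had one and stayed within 2-fold in rested against Th1 cells.

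Of the 34 genes, 24 had 1 probe and 10 had several, with 12 further probes in all. These gave 34 values to set against a call of the brightest probe, of which 28 went the same way and 20 were also 2-fold. Both Pdia6 probes (-2.62 and -2.12 in rested against Th1 cells), both Sec61b probes (-1.40 and -2.30) and both Ssr3 probes (-1.38 and -2.08) were 2-fold lower. For Spcs3 the brightest probe gave -3.33 and the other -1.89, so its size is uncertain. The derlins are the least settled: in rested against Th1 cells the other Derl1 probe gave -0.11 against -1.46, and in iTreg against Th1 cells 1 of the 3 Derl2 probes gave 0.44 where the others gave -1.41 and -1.35. The other Spcs2 probe gave -0.11 in rested against Th1 cells, against -1.20 for the brightest, and the other Dnajb9 probe -0.35 against 0.31. One of the 3 Ssr1 probes gave -0.32 in the same comparison, where the others gave -2.09 and -1.15.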

How the data were processed

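RNA of 5 CD4 T cell cultures was labelled with Cy3 and hybridised to 1-colour Agilent mouse arrays, 1 array per culture, per the labels' protocols. All arrays lay on 1 slide with 1 scan time, per the file headers. The deposited scanner files hold spot intensities, and their processed signal is the background-subtracted intensity made by Agilent Feature Extraction 10.7.1.1, per the file headers. Each array had 62976 spots, of which 59305 were not controls.

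Control spots and outlier spots were left out and the spots of a probe averaged. Log2 values were then taken relative to the 75th percentile of the array's spots. Gene names came from matching each probe's RefSeq accession to the GRCm38.p6 gene table, which named 28325 of the 55670 probes read on all arrays, and the brightest probe stood for a gene. A gene was tested in a comparison where its probe was well above background on at least 1 of the 2 arrays. A probe not well above background on an array has only a bound there. The fold, marked "at least", then uses the dimmest signal that counted as above background there, or the probe's measured signal if brighter. A difference of 1 log2 unit was called. With 1 array per group no test was run, and the number of arrays limits the precision.

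The members and all gene lists were chosen with earlier results of these data known. The genes described with all values were Hspa5, Xbp1, Atf6, Ern1, Derl3 and Herpud1 and, within each role, the 3 with the widest span over the arrays, and any other gene was named after its values were seen. Of the further lists, the 3 genes with the widest differences past 2-fold were open to naming. The comparison of Th1reg with Th1 cells was added after the data were seen.

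Alternatives were scaling to 8 spike-in probes, scaling over the 21014 probes detected on all arrays, normexp background correction with offset 50 (limma 3.58.1 in R 4.3.3, on median in place of mean signals), no floor for dim probes, the mean of a gene's probes, and the deposited value table. That table holds intensities on a linear scale that the authors had scaled before deposit, by steps not given in the sources used here. Set against the scanner files, 99.7% to 99.8% of its probes lay within 0.01 log2 units of the processed signal divided by 1 constant per array. Its scale is thus relative to a value near the 75th percentile, with genes not centred. Its column medians were 0.0693 for Th1reg, 0.0925 for iTreg, 0.103 for Th1+TGFb, 0.123 for rested and 0.0762 for Th1 cells. The scripts were tested on simulated data (Python 3.11.15, numpy 2.4.6, pandas 2.3.3).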

Additional observations from a re-analysis of the deposited data

Results flagged for a closer look

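Of the 34 genes, 2 differed at least 2-fold in opposite directions when cells entered the iTreg medium from rest and when they entered it from the Th1 state, 5.88% of the set against 4.69% of 12588 genes tested, a like share. Sdf2l1, the BiP-associated ER protein, was 3.43 log2 units higher in Th1reg than in rested cells, and its Th1+TGFb minus Th1 difference was -1.15. The gap between the differences was 4.58 log2 units. Ssr2, a subunit of the TRAP complex, was 1.96 higher in Th1reg than in rested cells, and its Th1+TGFb minus Th1 difference was -1.10, a gap of 3.06. The 4 arrays behind each gap are separate, but each culture has 1 array, so the difference between the starting points was not tested. Both genes reached 2-fold in both directions as scaled here. Over the detected probes no gene of the set did, and with the spike-ins 17 of the 34 did. The share of all genes that did so was not counted under these 2 scalings. With the spike-ins 71.4% of all genes were higher in Th1reg than in rested cells. Likewise 21.3% were lower in Th1+TGFb than in Th1 cells, so the 17 cannot be read as particular to the set.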

How the results depend on the processing

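No paired analysis was possible because each culture has 1 array and the labels carry no shared replicate number, and no replicate could be left out. No ER median changed direction under the 6 alternatives except that of Th1reg minus Th1, which was -0.25 as scaled here and 0.057 with the spike-ins. Scaling to the spike-ins gave ER medians of -0.96 for iTreg minus Th1, -2.68 for rested minus Th1, -0.995 for Th1+TGFb minus Th1 (17 genes lower), 1.68 for Th1+TGFb minus rested (29 higher), 2.64 for Th1reg minus rested (33 higher) and 1.05 for Th1reg minus Th1+TGFb (18 higher), with 1 gene lower in Th1reg than in Th1 cells. Scaling over the detected probes gave -0.87 for iTreg minus Th1 (14 lower), -0.99 for rested minus Th1 (1 higher, 17 lower), -0.39 for Th1+TGFb minus Th1 (1 lower), 0.60 for Th1+TGFb minus rested, 0.66 for Th1reg minus rested (1 lower), 0.15 for Th1reg minus Th1+TGFb (0 higher, 1 lower) and 0.51 for Th1reg minus iTreg (7 higher). These scalings shifted the median of all genes too, by -1.16 and 0.46 for rested minus Th1 and by 1.47 and -0.42 for Th1reg minus rested. With normexp no gene was higher in iTreg than in Th1 cells (0 of 34), the Th1reg minus rested median was 1.28, and 1 gene was lower in Th1reg than in Th1 cells. The mean of a gene's probes gave 0.77 for Th1reg minus iTreg, and with the deposited values 5 genes were lower in Th1+TGFb than in Th1 cells. Of 272 differences of single genes 109 were called: 39 calls were lost and 3 gained over the detected probes, 9 lost and 61 gained with the spike-ins, 15 and 5 with the mean of probes, 10 and 6 with normexp, 1 and 4 with the deposited table, and 0 and 0 without a floor. No called gene changed sign. Signal over background limits Derl3 most, whose rested value is a bound, and with 1 array per culture no difference can be set against the spread between cultures.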
